A study of Homo sapiens with 6 samples.

Results

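The genes described here encode the collagen and laminin chains of the extracellular matrix, the integrin receptors that bind it, and the matrix proteins fibronectin (FN1) and SPARC. They were taken by symbol: every gene named COL followed by digits and A, every LAMA, LAMB or LAMC gene with a number, every gene whose symbol starts with ITGA or ITGB, and FN1 and SPARC. That gave 85 of the 16670 genes with values, made up of 41 collagen chains, 12 laminin chains, 18 integrin alpha and 8 integrin beta subunits, FN1, SPARC and 4 genes that share the name but encode no subunit (ITGB1BP1, ITGB1BP2, ITGB3BP and ITGBL1). The cells were A549, a human line established from non-small cell lung cancer, and their RNA was sequenced. Controls included, they had first spent 1 week in alisertib, which blocks Aurora A, a kinase of mitosis, to bring about senescence, a lasting arrest of division. The untreated group (3 libraries) received nothing further that the labels name, and the salinomycin group (3 libraries) received 2.5 µM salinomycin, an ionophore that carries potassium and other alkali metal ions across membranes, for 48 h. The comparison asks what salinomycin does to the transcripts of senescent cells. Only this 1 line was studied, and cells without alisertib were not analysed here. The labels call the libraries biological replicates without saying that they came from separate cultures, so p-values measure the spread between these libraries.

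Collagens are built from 3 chains, the same or different, wound into a triple helix. Laminins are cross-shaped trimers of 1 alpha, 1 beta and 1 gamma chain, and with collagen IV they form the 2 networks of the basement membrane on which epithelial cells sit. Integrins pair 1 alpha with 1 beta subunit, and the pair sets the ligand: collagens, laminins, or proteins with an arginine-glycine-aspartate (RGD) motif such as fibronectin.

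Between 13538723 and 19640099 reads per library were recovered from the rounding steps of the deposited values. Of the epithelial markers, KRT8 and KRT18 were at 65855 to 89352 normalised units in untreated libraries, whereas EPCAM was at 37.3 to 55.3. The summed level of the 5 epithelial markers was 152080 to 167705 units in untreated and 33824 to 37954 in salinomycin libraries, with KRT19 alone higher. Of 6 fibroblast markers 4 had a mean over all 6 libraries under 10 units, DCN was at 0 in all salinomycin libraries, and the sum (307 to 402 untreated, 78.9 to 89.8 with salinomycin) was mostly THY1. All 5 endothelial markers had such a mean under 10 units, with EMCN at 0 in the untreated libraries. Smooth muscle markers summed to 424 to 440 and 103 to 115 units, mostly SYNPO2. Of 5 leukocyte markers PTPRC, CD3E and MS4A1 were not analysed here, and CD14 was at 189 to 219 units untreated and 20.6 to 40.4 with salinomycin. The part of these shifts in the results was not tested. In RNA from bulk cultures fewer cells of a kind and less RNA per cell cannot be told apart.

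With salinomycin most of these genes were lower. The test took genes that reached 10 units, once the added 1 was subtracted, in at least 3 libraries, which kept 63 of the 85 and set 22 aside. At a limma adjusted p under 0.05 (Benjamini-Hochberg over all 13088 tested genes), 45 of the 63 were lower (71.4%), 9 higher (14.3%) and 9 did not pass. Over all tested genes 40.2% were lower and 41.6% higher, 81.9% in either direction against 54 of the 63 here. The median log2 change was -0.99 for the 63 and 0.022 for all tested genes. Changes of at least 2-fold were found downward in 31 and upward in 5, against 18.5% and 16.8% of all tested genes. The 5 include COL2A1, COL13A1 and LAMA2, which reached the filter only in the salinomycin libraries. The 31 include COL3A1, ITGB2 and ITGAM, which reached it only in the untreated ones. Such genes could be tested only because they were high in 1 group, so their calls are no separate support. The groups did not overlap, with salinomycin lower, in 45 of the 63 genes, against 40.6% of all tested genes. With salinomycin higher, they did not overlap in 10 more, and 83% of all tested genes had no overlap in either direction. Integrins were lower in 19 of 22 tested cases (86.4%) and collagens in 19 of 27 (70.4%), while laminins were divided, with 3 lower, 3 higher and 4 that did not pass. When 1 salinomycin library was left out, the number of higher genes fell from 9 to 5 or 6. The filter still asked for 3 libraries, so COL2A1, COL13A1 and LAMA2 had to drop out whatever their values. COL20A1 did not pass without salinomycin replicate 1 or 2.

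**Figure D1:**
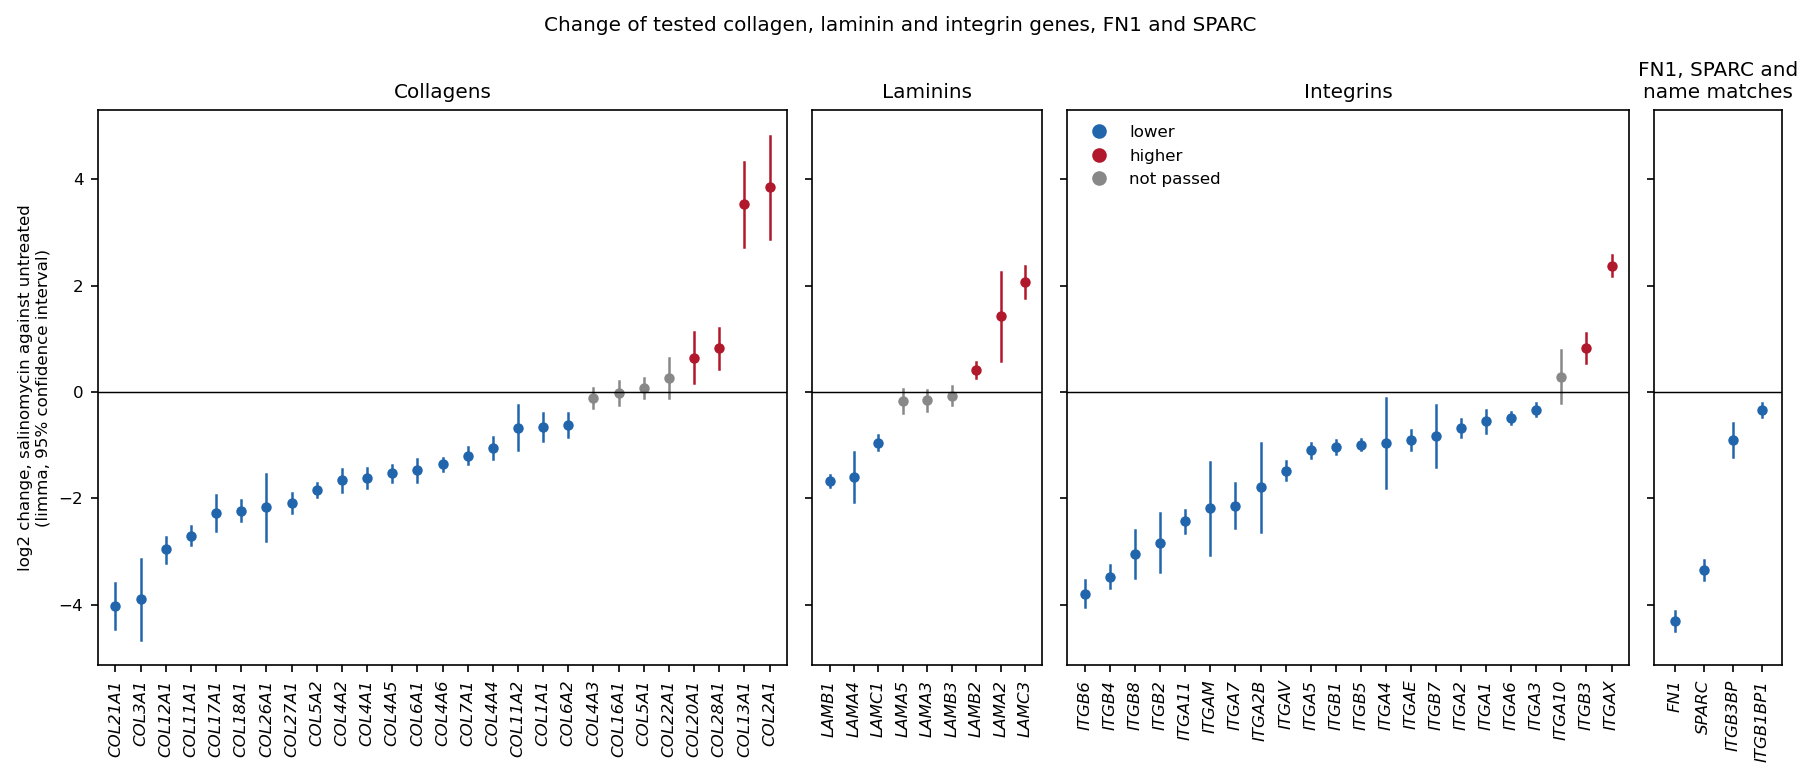
Log2 change with salinomycin (vertical axis) for tested genes, with the 95% confidence interval from limma, in panels for collagens, laminins, integrins, and FN1, SPARC and the name matches. Blue points are lower, red higher and grey did not pass. In all 45 points are blue, and the lowest is FN1 at -4.31.

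Each change is measured against the rest of a library's genes. When libraries were scaled by their totals alone, the all-gene median moved from 0.022 to 0.212 on the log2 scale and 49.4% were higher and 33.3% lower, while 11 of the 63 genes were higher and 44 lower. Untreated replicate 2 was the lowest of the untreated libraries in 39 of the 63 genes (61.9%), against 34.3% of all tested genes, and in 19 of the 27 tested collagens. Its part in the results was not tested, but without it 43 of 60 tested genes were lower and 8 higher.

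FN1 (chromosome 2, 215360440 to 215436172, minus strand, GRCh38) encodes fibronectin, a large RGD protein that cells assemble into fibrils. It was at 162742, 187575 and 177948 normalised units in untreated replicates 1 to 3 and at 9703, 9438 and 7669 in salinomycin replicates 1 to 3. Every salinomycin library was far below every untreated one. FN1 fell by 4.31 on the log2(value + 1) scale, which is 19.8-fold (SE 0.089, limma adjusted p = 2.62e-12, n = 3 per group), the largest fitted change among the 63 with a pseudocount of 1. Its share of the library's summed values was 1.01% untreated and 0.0586% with salinomycin. Per kilobase of exon it was at 10200 units untreated, above ITGB1 at 6800 and COL5A2 at 1900, and at 516 with salinomycin. SPARC (chromosome 5, 151661096 to 151687165, minus strand) encodes a secreted protein that binds collagen. Its values were 2220, 1780 and 2117 untreated and 211, 195 and 192 with salinomycin. SPARC fell 10.1-fold (log2 change -3.34, SE 0.0846, limma adjusted p = 1.1e-11), again with no overlap.

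The 250 bases before the RefSeq start of FN1 (chr2:215436069-215436318, minus strand, GRCh38.p14) are shown because of the size of its change. Capitals mark a CCAAT box (CCAAT), GC boxes (GGGCGG) and a cAMP response element (TGACGTCA), each searched on both strands.
FN1 upstream: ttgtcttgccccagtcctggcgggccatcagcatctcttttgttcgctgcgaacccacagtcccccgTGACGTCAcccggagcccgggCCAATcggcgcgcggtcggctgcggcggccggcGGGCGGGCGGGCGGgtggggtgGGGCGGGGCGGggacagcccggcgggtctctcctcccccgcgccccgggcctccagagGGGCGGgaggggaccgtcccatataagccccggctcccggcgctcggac
RefSeq promoters (250 bases before to 50 after the start) were matched for 46 of the 61 tested chains, subunits, FN1 and SPARC. TGACGTCA was found in 1 of these, FN1 (2.2%), and in 2.0% of all 27305 promoters. CCAAT was found in 23.9% against 35.7% of all promoters, GGGCGG in 56.5% against 44.6%, the AP-1 site TGACTCA in 4.3% against 4.9%, and TATAAA in 10.9% against 12%. These matches describe the letters only.

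Collagen IV forms the sheet of the basement membrane, and its 6 genes lie in pairs that start next to each other and are read in opposite directions. The bases between the starts of each pair are shown because the chains of a pair can be compared within a library. All 126 bases are given for COL4A1 and COL4A2 (chr13:110307158-110307283), and the 250 bases before the second gene's start for COL4A4 and COL4A3 (chr2:227164374-227164623, of 418) and for COL4A6 and COL4A5 (chrX:108439588-108439837, of 379), all on the plus strand of GRCh38.p14 from RefSeq, with CCAAT and GC boxes of either strand in capitals.
COL4A1 and COL4A2: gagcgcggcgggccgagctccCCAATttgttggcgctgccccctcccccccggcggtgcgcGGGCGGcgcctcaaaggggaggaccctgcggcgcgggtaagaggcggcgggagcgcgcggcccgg
COL4A4 and COL4A3: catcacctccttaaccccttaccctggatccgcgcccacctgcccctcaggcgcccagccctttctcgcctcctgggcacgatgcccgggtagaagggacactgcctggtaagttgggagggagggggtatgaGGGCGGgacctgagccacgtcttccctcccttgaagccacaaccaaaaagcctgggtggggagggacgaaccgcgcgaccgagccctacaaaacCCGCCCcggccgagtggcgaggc
COL4A6 and COL4A5: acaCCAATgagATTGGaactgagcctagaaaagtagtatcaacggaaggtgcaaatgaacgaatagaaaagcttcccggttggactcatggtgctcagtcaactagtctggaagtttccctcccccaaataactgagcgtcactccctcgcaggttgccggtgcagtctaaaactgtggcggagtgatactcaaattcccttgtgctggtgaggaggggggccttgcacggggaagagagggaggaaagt
Of the 6 chains 5 fell and COL4A3 did not pass, where 40.2% of all tested genes were lower. COL4A1 was at 2789, 2280 and 2960 units untreated and 829, 848 and 934 with salinomycin (log2 change -1.61, limma adjusted p = 5.95e-09). COL4A2 was at 7032, 5320 and 7182 untreated and 1903, 2037 and 2204 with salinomycin (-1.66, limma adjusted p = 1.5e-08). The ratio of COL4A2 to COL4A1 was 2.43 ± 0.0941 untreated and 2.35 ± 0.0529 with salinomycin (SD, n = 3 each), a difference within the spread of the libraries (exact permutation p = 0.4, two-sided).

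The COL4A3 and COL4A4 pair, whose chains join COL4A5 in the collagen IV of kidney and lung, moved unequally. COL4A4 was at 1415, 1399 and 1811 units untreated and 801, 724 and 697 with salinomycin (log2 change -1.05, limma adjusted p = 5.94e-07). COL4A3 was at 1151, 1287 and 1417 untreated and 1332, 1169 and 1070 with salinomycin, and the groups overlapped (log2 change -0.11, limma adjusted p = 0.265, and 0.08 with libraries scaled by totals alone). The ratio of COL4A3 to COL4A4 was 0.839 ± 0.0722 untreated and 1.61 ± 0.0642 with salinomycin, without overlap. Such ratios are given for 11 pairs of chains, and 3 against 3 libraries cannot give an exact permutation p below 0.1. The pairs whose groups did not overlap were at that value, 0.14 once adjusted over the 11. COL4A5 was at 3857, 4564 and 4609 untreated and 1606, 1469 and 1436 with salinomycin. COL4A6 was at 3916, 4122 and 4382 untreated and 1629, 1588 and 1607 with salinomycin. Both fell (log2 changes -1.53 and -1.36), and their ratio was 1.05 ± 0.0612 and 0.935 ± 0.0468 (exact permutation p = 0.2).

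Fibrillar collagens make the striated fibres of connective tissue. Of 8 tested, 6 fell, 1 rose and 1 did not pass, against 40.2% lower and 41.6% higher among all tested genes. COL5A2 encodes the alpha 2 chain of collagen V, which sets the width of collagen I fibrils. It was at 13808, 13279 and 15436 units untreated and 3872, 3934 and 3976 with salinomycin, with no overlap (3.6-fold lower, log2 change -1.85, SE 0.0582, limma adjusted p = 5.74e-11). Its partner chain COL5A1 was at 4639, 3760 and 5081 untreated and 4644, 4679 and 4698 with salinomycin, inside the untreated range (log2 change 0.07, 95% confidence interval -0.12 to 0.26, limma adjusted p = 0.485). Its sign turned to -0.05 without untreated replicate 2, whereas the authors' deposited table calls COL5A1 higher (log2 change 0.254). The ratio of COL5A1 to COL5A2 was 0.316 ± 0.0287 untreated and 1.19 ± 0.00883 with salinomycin.

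COL11A1 (log2 change -2.7), COL27A1 (-2.09), COL11A2 (-0.67) and COL1A1 (-0.66) also fell. COL1A1, a chain of collagen I, was at 520 to 745 units untreated and 398 to 434 with salinomycin, while its partner COL1A2 had a mean below 1 unit in both groups. COL3A1 was at 41.1, 30.9 and 51.2 units untreated and 1.85, 2.81 and 0.939 with salinomycin. That rests on 106 and 6 recovered reads, an untreated to salinomycin ratio of 23.3 (95% counting interval 10.4 to 64.9). The fitted fold of COL3A1, 14.9, was 4.91 with a pseudocount of 8. COL3A1 reached the filter only in the untreated libraries, so leaving out any of them removed it whatever its values. COL2A1, the collagen of cartilage, was at 1.08, 0 and 2.13 units untreated and 21.3, 30 and 27.2 with salinomycin. It rose from 3 to 90 recovered reads, a ratio of 22.7 (95% counting interval 7.54 to 112). COL2A1 reached the filter only in the salinomycin libraries, so its limma adjusted p (5.73e-06) is no separate support for the rise. These intervals cover counting error only.

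Of the collagens that build networks and short filaments, COL7A1, which anchors the epithelial basement membrane to the tissue beneath, had the highest level per kilobase of exon, 637 units untreated. It was at 6786, 6554 and 7825 units untreated and 3281, 2872 and 3050 with salinomycin, and fell by 1.2 on the log2 scale (limma adjusted p = 1.28e-08). COL6A1 and COL6A2, chains of the beaded filaments of collagen VI, had log2 changes of -1.47 and -0.62, both past the test. COL6A1 was at 729, 592 and 759 untreated and 264, 249 and 232 with salinomycin. COL6A2 was at 543, 418 and 536 untreated and 311, 344 and 314 with salinomycin. Their ratio was 1.39 ± 0.0421 untreated and 0.771 ± 0.0674 with salinomycin, without overlap. COL6A3, another collagen VI chain, had means of 6.06 units untreated and 5.92 with salinomycin and was not tested. COL26A1 fell (log2 change -2.17) and COL28A1 rose (0.82), both below 54 units in every library; the fold of COL26A1, 4.51, was 2.81 with a pseudocount of 8.

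COL18A1, a basement membrane collagen whose end fragment is endostatin, was second to COL5A2 among collagens per kilobase of exon, at 1030 units untreated. It was at 9306, 7333 and 9776 units untreated and 1842, 1905 and 1814 with salinomycin (4.71-fold lower, log2 change -2.24, limma adjusted p = 3.48e-10). Of its exon bases 16.4% overlap SLC19A1 on the opposite strand, and whether reads were counted by strand is not given in the sources used here, so reads of the shared part cannot be told apart. Among collagens that sit on fibrils, COL21A1 and COL12A1 fell, COL20A1 rose, and COL16A1 and COL22A1 did not pass. COL21A1 was at 152, 136 and 146 units untreated and 10.2, 6.56 and 7.51 with salinomycin. It fell by 4.02 on the log2(value + 1) scale (limma adjusted p = 2.29e-09), which is 16.3-fold, or 9.54-fold with a pseudocount of 8. COL12A1 was at 769, 898 and 994 untreated and 127, 112 and 100 with salinomycin (log2 change -2.96). COL20A1, below 35 units everywhere, lost its call without untreated replicate 2 (adjusted p = 0.0667) or without salinomycin replicate 1 or 2.

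The membrane-spanning collagens moved in both directions. COL17A1, which holds basal epithelial cells at hemidesmosomes, was at 104, 107 and 93.9 units untreated and 21.3, 20.6 and 18.8 with salinomycin (log2 change -2.27, limma adjusted p = 5.35e-08). COL13A1 was at 3.24, 1.06 and 1.07 untreated and 29.6, 28.1 and 30 with salinomycin. It rose, from 5 to 102 recovered reads, a ratio of 15.5 (95% counting interval 6.41 to 48.6), but it reached the filter only in the salinomycin libraries.

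**Figure D2:**
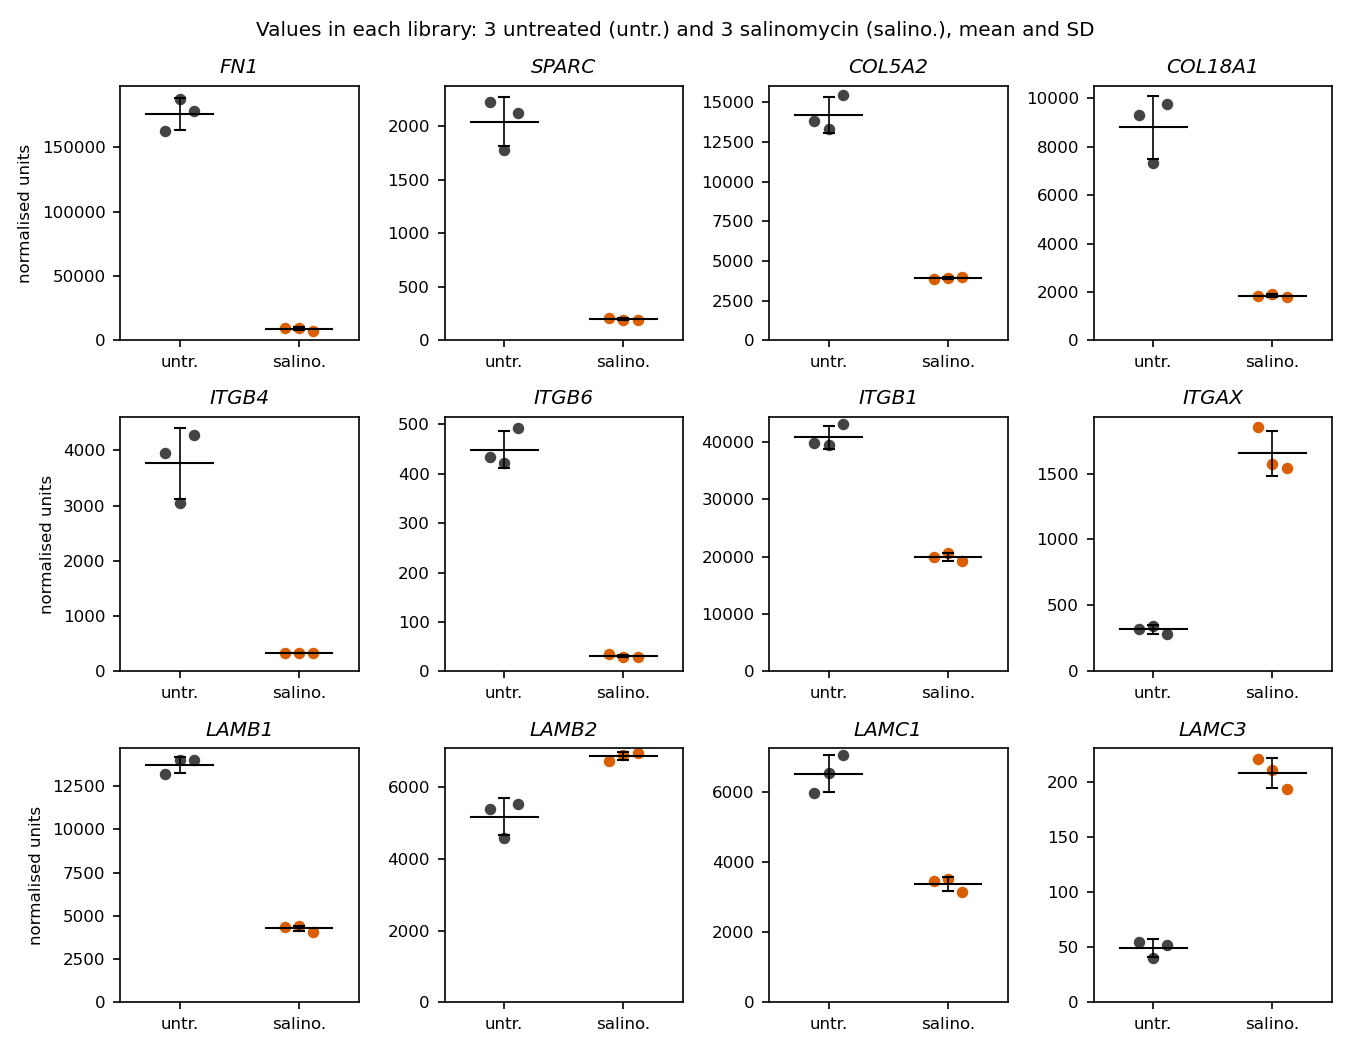
Normalised units (vertical axes from 0, a scale per gene) in each library of 12 genes, with group mean and SD. The groups do not overlap in any of the 12 panels, and ITGAX, LAMB2 and LAMC3 are the 3 that are higher with salinomycin.

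The laminin chains did not move as a block, and chains of the same kind went in opposite directions. Among beta chains, LAMB1 was at 13207, 14017 and 13978 units untreated and 4344, 4390 and 4092 with salinomycin (3.21-fold lower, log2 change -1.68, SE 0.0499, limma adjusted p = 3.6e-11). LAMB2, the beta chain of laminins in kidney and the neuromuscular junction, was at 5401, 4581 and 5537 untreated and 6737, 6911 and 6943 with salinomycin (1.33-fold higher, log2 change 0.41, limma adjusted p = 0.00011). The ratio of LAMB2 to LAMB1 was 0.377 ± 0.0442 untreated and 1.61 ± 0.0783 with salinomycin. Per kilobase of exon LAMB1 was at 1690 units and LAMB2 at 754 untreated, and at 525 and 1000 with salinomycin, so their order turned.

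Among gamma chains, LAMC1, the common one, was at 5985, 6551 and 7059 units untreated and 3458, 3523 and 3164 with salinomycin (log2 change -0.95, limma adjusted p = 5.18e-08). LAMC3 was at 55.1, 40.4 and 52.3 untreated and 220, 210 and 193 with salinomycin (4.18-fold higher, log2 change 2.07, SE 0.14, limma adjusted p = 4.37e-08). The groups did not overlap for either gene. LAMC3 stayed the rarer chain, with a ratio to LAMC1 of 0.0076 ± 0.00153 untreated and 0.0615 ± 0.00208 with salinomycin.

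Of the alpha chains, LAMA5 was the most abundant per kilobase of exon, at 403 units untreated. It was at 5252, 4961 and 7081 units untreated and 5098, 5149 and 4965 with salinomycin, with overlap (log2 change -0.17, limma adjusted p = 0.156). LAMA5, LAMB1 and LAMC1 together form laminin-511, so in that trimer the alpha chain did not pass while the beta and gamma chains fell. LAMA4 was at 60.5, 88.3 and 88.6 units untreated and 26.8, 30 and 19.7 with salinomycin, and fell by 1.59 on the log2 scale. LAMA2, the alpha chain of muscle laminin, was at 4.32, 2.13 and 5.34 untreated and 9.26, 15.0 and 11.3 with salinomycin. That is a ratio of 3.11 from 10 and 41 recovered reads (95% counting interval 1.53 to 6.96). LAMA2 too reached the filter only in the salinomycin libraries.

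LAMA3 and LAMB3 encode chains of laminin-332, the laminin under epithelial hemidesmosomes, and neither passed. LAMA3 was at 950, 1145 and 1179 units untreated and 1063, 970 and 901 with salinomycin (log2 change -0.15, 95% confidence interval -0.35 to 0.04). LAMB3 was at 1003, 914 and 1091 untreated and 896, 921 and 1054 with salinomycin (-0.07, -0.24 to 0.11). The groups overlapped in both genes, and each interval leaves out a change of 2-fold. The ratio of LAMA3 to LAMB3 overlapped as well, at 1.09 ± 0.153 untreated and 1.03 ± 0.167 with salinomycin (exact permutation p = 0.6). LAMA3, like LAMA5, was called lower with upper-quartile scaling (log2 changes -0.24 and -0.25), and with library totals alone LAMA3, LAMA5 and LAMB3 had log2 changes of 0.04, 0.02 and 0.12. Leaving out a library also made a call, for LAMA3 without untreated replicate 1 and for LAMA5 without untreated replicate 2.

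A receptor for laminin-332, though not its only one, is integrin alpha 6 beta 4, encoded by ITGA6 and ITGB4. ITGB4 (chromosome 17, 75721328 to 75757818, plus strand) was at 3956, 3056 and 4286 units untreated and 336, 335 and 339 with salinomycin. It fell 11-fold (log2 change -3.47, SE 0.101, limma adjusted p = 3.11e-11). ITGA6, which can also pair with ITGB1, was at 1485, 1529 and 1511 untreated and 1109, 1085 and 1028 with salinomycin (log2 change -0.49, limma adjusted p = 2.88e-06). The ratio of ITGA6 to ITGB4 was 0.409 ± 0.0796 untreated and 3.19 ± 0.14 with salinomycin, with no overlap.

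**Figure D3:**
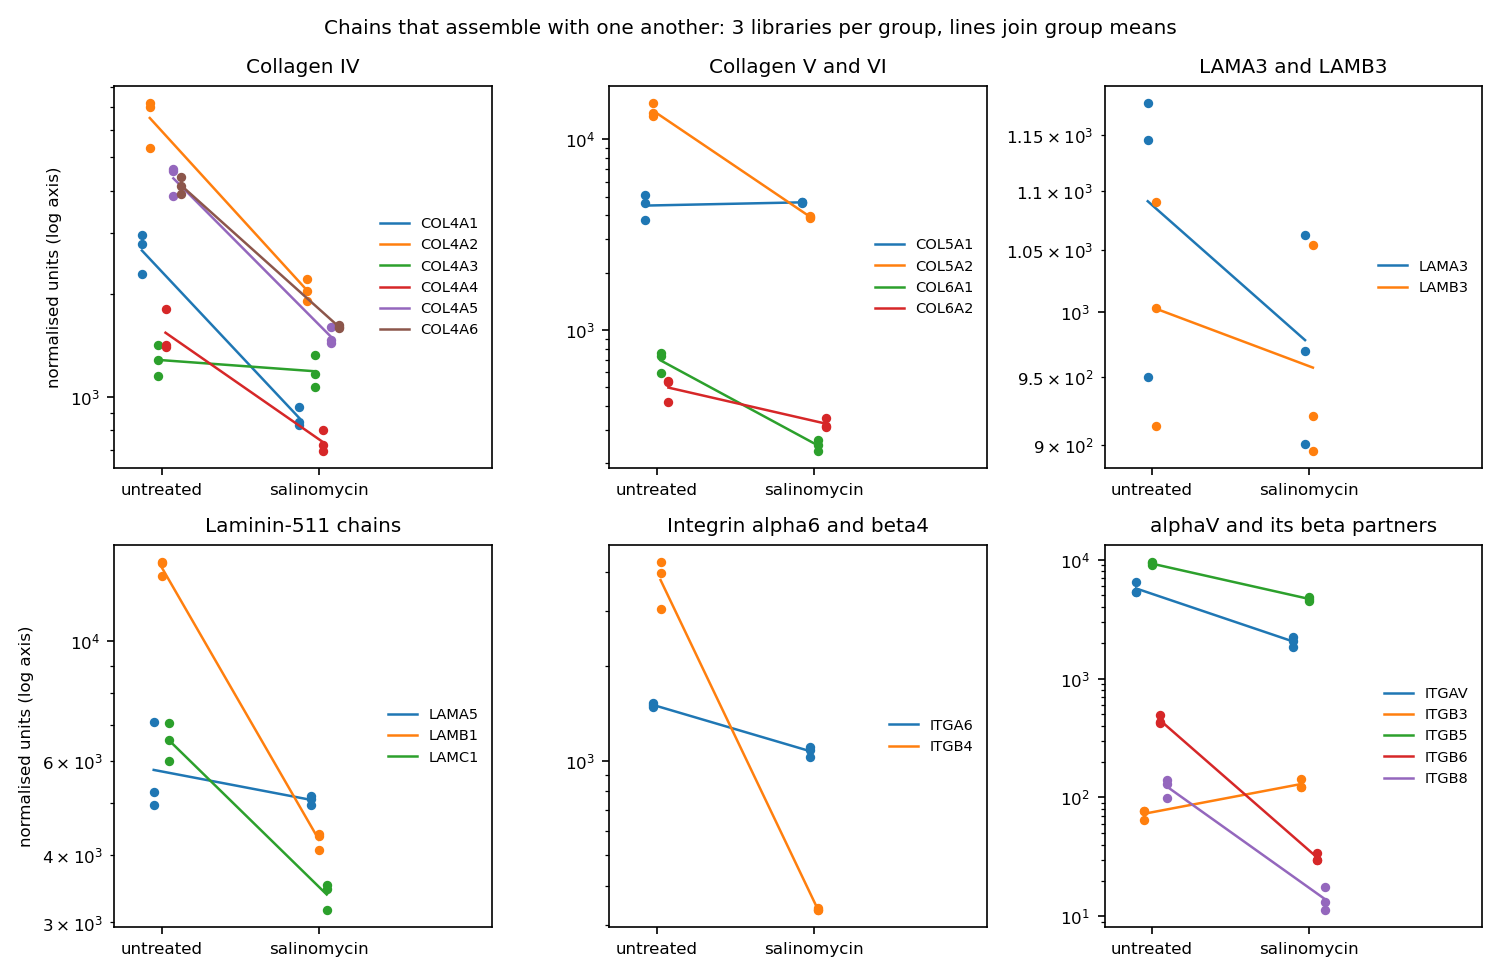
Normalised units (log axes, a scale per panel) of chains that assemble with one another, 1 point per library and lines joining group means. COL5A1, COL4A3, LAMA3, LAMB3 and LAMA5 show overlapping groups, whereas ITGB4 drops 11-fold beside ITGA6.

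ITGB1, the beta subunit with the most partners, was the most abundant integrin per kilobase. It was at 39890, 39492 and 43177 units untreated and 19874, 20649 and 19273 with salinomycin (2.05-fold lower, log2 change -1.03, SE 0.0571, limma adjusted p = 6.57e-09). Its laminin-binding partner ITGA3 was at 15648, 14410 and 16592 untreated and 12005, 12599 and 12392 with salinomycin, and fell by 0.33. The ratio of ITGA3 to ITGB1 was 0.38 ± 0.0141 untreated and 0.619 ± 0.0209 with salinomycin. ITGA7, the third laminin-binding alpha subunit, fell by 2.14.

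Of the 4 collagen-binding partners of ITGB1, 3 fell and ITGA10 did not pass, where 40.2% of all tested genes were lower. ITGA11, which binds fibrillar collagen, was at 4974, 4037 and 5662 units untreated and 854, 932 and 902 with salinomycin (5.41-fold lower, log2 change -2.43, limma adjusted p = 4.22e-10). ITGA2 was at 960, 1126 and 1166 untreated and 708, 669 and 651 with salinomycin (log2 change -0.68). ITGA1 fell by 0.55. ITGA10 was at 20.3 to 34.0 units untreated and 30 to 33.3 with salinomycin.

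The RGD-binding alpha subunits ITGA5, ITGAV and ITGA2B all fell. ITGA5, which with ITGB1 makes the main fibronectin receptor, was at 1995, 1748 and 2001 units untreated and 917, 834 and 932 with salinomycin (log2 change -1.10, limma adjusted p = 1.91e-08). ITGAV was at 5374, 5375 and 6431 untreated and 2240, 2058 and 1843 with salinomycin (log2 change -1.48, limma adjusted p = 7.21e-09). Neither gene's groups overlapped.

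The beta partners of ITGAV differed in direction. ITGB6, an epithelial subunit that with ITGAV activates latent TGF-beta, was at 435, 421 and 492 units untreated and 34.3, 30 and 30 with salinomycin (13.9-fold lower, log2 change -3.79, limma adjusted p = 4.87e-11). ITGB8, another subunit that acts on latent TGF-beta, was at 99.5, 129 and 139 untreated and 17.6, 13.1 and 11.3 with salinomycin (log2 change -3.05). ITGB5 was at 9373, 8933 and 9480 untreated and 4484, 4643 and 4892 with salinomycin (log2 change -0.99). ITGB3 rose: it was at 76.8, 76.6 and 65.1 untreated and 143, 123 and 123 with salinomycin (log2 change 0.83, limma adjusted p = 8.13e-05). ITGB3 shares 51.6% of its exon bases with AC068234.1 and ITGB6 shares 20.6% with AC092153.1, each on the same strand, so these counts are uncertain.

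ITGAX (chromosome 16, 31355134 to 31382997, plus strand), which encodes CD11c of dendritic cells and macrophages, was the only alpha subunit that rose. It was at 324, 348 and 283 units untreated and 1850, 1573 and 1539 with salinomycin (5.18-fold higher, log2 change 2.37, SE 0.0905, limma adjusted p = 2.67e-10). Its sole beta partner ITGB2 was at 55.1, 38.3 and 58.7 untreated and 5.55, 7.50 and 5.63 with salinomycin (log2 change -2.83, limma adjusted p = 6.11e-07). The ratio of ITGAX to ITGB2 was 6.59 ± 2.22 untreated and 272 ± 61.6 with salinomycin. ITGAM, another partner of ITGB2, was at 20.5, 25.5 and 18.1 untreated and 1.85, 3.75 and 7.51 with salinomycin (log2 change -2.19). With a pseudocount of 8 the fold of ITGB2 went from 7.09 to 4.08 and that of ITGAM from 4.56 to 2.41. Both reached the filter only in the untreated libraries, so their calls are no separate support for the fall. Leaving out any untreated library removed them whatever their values. The leukocyte marker CD14 was at 20.6 to 40.4 units in the salinomycin libraries, below its untreated level, and CSF1R had 3 recovered reads there. ITGAE fell by 0.91 on the log2 scale. ITGA4 and ITGB7 fell at low levels, and 42.1% of the exon bases of ITGB7 overlap ZNF740 on the opposite strand. ITGA4 lost its call when any of 5 of the 6 libraries was left out (untreated replicates 1, 2 and 3, salinomycin replicates 2 and 3; adjusted p 0.0582 to 0.125), and ITGB7 without untreated replicate 3.

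Genes that work with these proteins were taken from 4 lists. Of the 30 tested genes that modify, fold, cut or cross-link collagen, 20 rose, 9 fell and SERPINH1 did not pass (median log2 change 0.68), against 41.6% higher and 40.2% lower among all tested genes. P4HB, the disulfide isomerase that is also a subunit of prolyl 4-hydroxylase, was at 20678, 19702 and 19729 units untreated and 109519, 113245 and 121448 with salinomycin (log2 change 2.52, limma adjusted p = 8.11e-12). LOX, which cross-links collagen and elastin outside the cell, was at 10.8, 12.8 and 11.7 untreated and 184, 208 and 218 with salinomycin (log2 change 4). TMEM38B, an ion channel of the endoplasmic reticulum, rose by 1.79. P4HA3, PLOD2 and LOXL4, which hydroxylate prolines, hydroxylate lysines and cross-link collagen, fell and had log2 changes of -2.59, -2.11 and -1.46.

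Of 37 tested other matrix and basement membrane genes 23 fell, 6 rose and 8 did not pass (median log2 change -1.24). Over all tested genes 40.2% were lower and 41.6% higher. VCAN, a large proteoglycan, was at 4974, 5295 and 6015 units untreated and 276, 282 and 258 with salinomycin (log2 change -4.31, limma adjusted p = 5.98e-13). MATN3 and VTN, an RGD protein, also fell (log2 changes -3.36 and -3.28), while EFEMP2, LTBP4 and NID1, which links laminin to collagen IV, rose by 1.85, 1.8 and 1.05. Of 41 adaptors that tie integrins to actin 28 fell, 6 rose and 7 did not pass (median -0.45), against the same all-gene shares. TNS4, a tensin that binds integrin beta tails, was at 7973, 7389 and 8660 untreated and 216, 220 and 193 with salinomycin (38-fold lower, log2 change -5.25, limma adjusted p = 2.44e-13). TNS3 and LIMS2 fell (log2 changes -2.68 and -2.43), and PXN (paxillin), RSU1 and SHARPIN rose by 0.84, 0.54 and 0.46.

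Of 22 other matrix receptors and integrin partners 14 fell, 6 rose and 2 did not pass (median -0.61). Among all tested genes 40.2% were lower and 41.6% higher. BCAM, a laminin receptor, DDR1, a collagen receptor kinase, and SDC3 fell (log2 changes -2.49, -1.99 and -1.9). MCAM, SDC4 and CD47 rose by 0.77, 0.59 and 0.55.

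**Figure D4:**
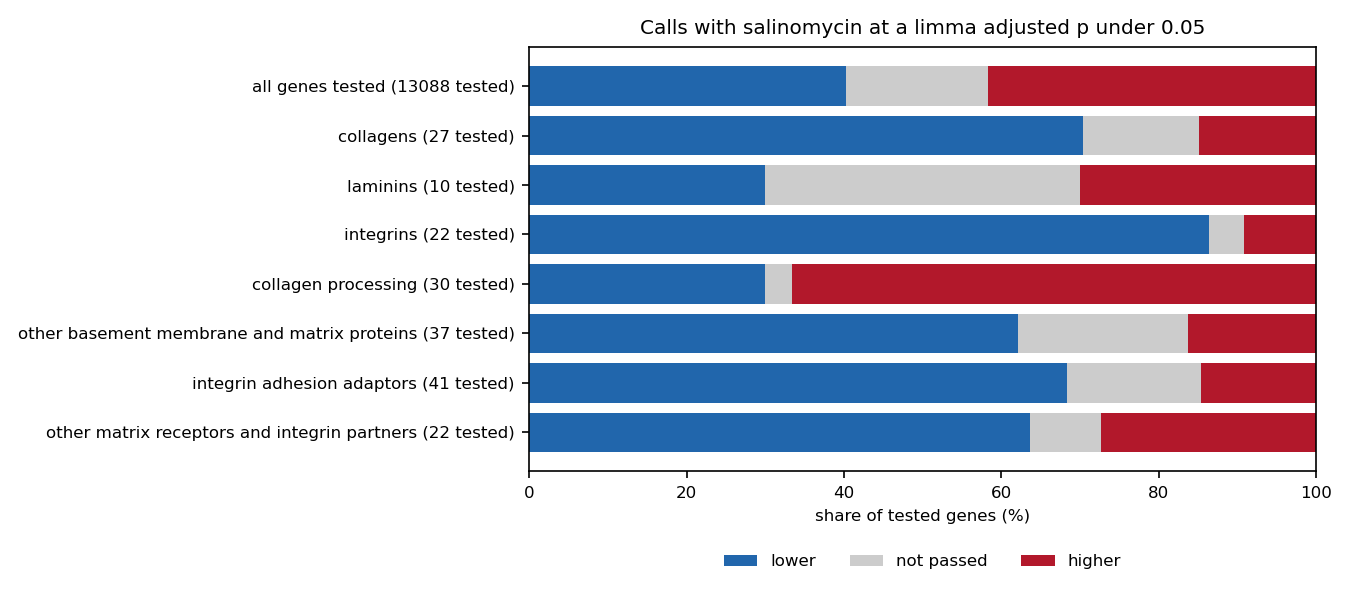
Share of tested genes (horizontal axis, percent) that were lower, did not pass or were higher with salinomycin, for all genes, the 3 gene families and the 4 lists. Collagens (70.4% lower) and integrins (86.4% lower) stand beside collagen processing, where 20 of 30 genes were higher.

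The 22 genes set aside had group means of at most 10.9 units and were COL1A2, COL5A3, COL24A1, COL6A3, COL6A5, COL8A1, COL8A2, COL10A1, COL9A2, COL9A3, COL14A1, COL23A1, COL25A1, COL15A1, LAMA1, LAMB4, ITGA8, ITGA9, ITGAD, ITGAL, ITGB1BP2 and ITGBL1. Of the genes matched by name alone, ITGB1BP1 and ITGB3BP were tested and both fell (log2 changes -0.34 and -0.91). ITGB1BP1 shares 33.1% of its exon bases with ASAP2 on the opposite strand, so reads of that part cannot be told apart. Without the name matches 43 of 61 tested genes were lower and 9 higher, with a median log2 change of -1.03.

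Of the 63 tested genes, the authors' deposited table has 41 lower and 10 higher at an adjusted p under 0.05, where the same table has 31.5% of the 13088 genes tested here lower and 47.6% higher, with 58 calls the same as here and 0 in opposite directions. These calls come from the same libraries. The 4 genes called here and not there were COL11A2, ITGA4, ITGB7 and ITGB1BP1. COL5A1 was the 1 gene called, as higher, only there. In the authors' deposited table of gene sets, 33 of 47 sets named for collagen, laminin, integrin or basement membrane had a negative score with an adjusted p under 0.05 and 0 a positive one, against 12.8% and 5.01% of all 21624 sets. These scores come from the same libraries too, and sets can share genes, so the 47 are not separate results.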

How the data were processed

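RNA-seq values of 6 libraries (3 per group) were used. The authors deposited whole numbers rescaled to similar library totals with a minimum of 1, treated here as signal and not as raw counts. The build is GRCh38, per the submitters' processing notes; for aligner, counter, annotation and scaling, nothing was found (not given in the sources used here). Log2 fold changes, adjusted p-values and gene set enrichment scores were also deposited by the authors, per the file headers.

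Here 1 was subtracted, libraries were scaled by the trimmed mean of M values (30% of log ratios and 5% of levels trimmed), and log2(value + 1) was fitted with limma 3.58.1 in R 4.3.3 with a mean-variance trend. Genes with 10 or more in 3 libraries were tested (13088 of 16670). The script was tested on simulated data. Reads per library were recovered from the steps between low values. Exon lengths are from GENCODE 29.

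The genes and lists were chosen with earlier results of these data known. Values in every library are given for FN1, SPARC, the 3 highest and 3 most changed genes of each family and their partner chains, with other members added where a result turned on them. From each list the 3 largest changes each way with a mean of 100 or more are named. Pairing by replicate number was not used in the main fit. Same-number deviations correlated at -0.172, -0.013 and -0.033 and those of unlike numbers at -0.154 to 0.194. With 3 libraries per group these values cannot settle whether the samples were paired. No replicate pair agreed within sampling noise (chi-square per gene 2.77 to 6.46). Alternatives were other scalings, filters, pseudocounts, limma-voom on recovered reads, a replicate block and leaving out each library. For 1 tested gene single values are not reported here, and it is counted only in the totals.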

Additional observations from a re-analysis of the deposited data

How the results depend on the processing

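With median-of-ratios scaling, mitochondrially encoded genes left out, pseudocounts of 0.5 and 8, limma-voom on recovered reads and the replicate block, 9 of the 63 genes were higher and 45 lower, and all 63 calls were the same. The replicate block changed no call of these genes. Upper-quartile scaling gave 9 higher and 48 lower, and no filter gave 11 and 50 of 85. Only 4 genes were higher when 50 units were required in 3 libraries, which left 48 tested. Leaving out 1 library gave 5 to 9 higher and 40 to 45 lower genes, with 5 higher without salinomycin replicate 1 or 2, where COL20A1 did not pass. The filter still asked for 3 libraries. COL2A1, COL13A1 and LAMA2 thus had to drop out without any 1 salinomycin library, whatever their values. The same held for COL3A1, ITGAM and ITGB2 without any 1 untreated library. With library totals alone, the higher genes among other basement membrane and matrix proteins went from 6 to 10 and among integrin adhesion adaptors from 6 to 10. Among the genes reported, signs turned only for those that did not pass. These were COL5A1 (-0.02 with upper-quartile scaling, -0.05 without untreated replicate 2) and COL16A1 (0.17 with library totals, 0.03 without untreated replicate 1, 0.04 without salinomycin replicate 3), with leave-one-out ranges of -0.05 to 0.16 for COL5A1 and -0.06 to 0.04 for COL16A1. With library totals they also included COL4A3 (0.08), LAMA3 (0.04), LAMA5 (0.02) and LAMB3 (0.12). COL5A1 (0.26) and COL22A1 (0.45) then passed as higher and ITGA4 (-0.79) no longer passed. The cause was not tested. Depth limits COL2A1, COL3A1, COL13A1 and LAMA2, which had 10 or fewer recovered reads in 1 group.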
